A study of Rattus norvegicus with 16 samples.

Results

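The small leucine-rich proteoglycans were followed across 4 tendons of Sprague Dawley rats, as 10 genes chosen by gene symbol: Dcn, Bgn, Fmod, Lum, Kera, Prelp, Ogn, Omd, Aspn and Podn. The deposited count table held a row for 9 of them among its 23285 genes, and Podn is not analysed here. Of these 9, 7 passed the filter on low counts, as did 16948 genes in all. Dcn, Bgn, Fmod, Lum, Kera and Prelp had at least 14709 counts in every library, while Ogn, Omd and Aspn were near the limit of detection in most libraries. Total RNA was sequenced from the Achilles tendon, the forepaw flexor tendons, the patellar tendon and the supraspinatus tendon of the shoulder, with 4 libraries each, and the series was designed to compare every tendon with every other. The labels name no age, sex or treatment. Titles number the libraries of each tendon as Rat 1 to Rat 4, and the labels leave unsaid if a number marks an animal shared by the tendons or only a library. The p-values therefore measure only the spread between these samples, which may be technical.

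Small leucine-rich proteoglycans are secreted proteins built around a curved array of leucine-rich repeats that binds collagen, and many carry chondroitin, dermatan or keratan sulfate chains. In tendon they bind the surface of type I collagen fibrils, and mice that lack them have fibrils of abnormal diameter and shape. Decorin, biglycan and asporin, encoded by Dcn, Bgn and Aspn, form the first class. The second class holds fibromodulin, lumican, keratocan, PRELP and osteomodulin, encoded by Fmod, Lum, Kera, Prelp and Omd, while osteoglycin, encoded by Ogn, and podocan belong to further classes.

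The smallest library held 63397591 counts and the largest 102491699. A floor of 3 counts was worth 0.0293 to 0.0473 CPM, the counts of a gene scaled to a common library total, and covers counting error only. All 11 markers of tendon fibroblasts were detected, at 2.94 to 14.1% of counts, a list that includes Fmod and Kera themselves. Counts of 21 skeletal muscle markers made up 0.0963 to 1.38% of Achilles, 1.74 to 6.71% of flexor, 0.0651 to 3.75% of patellar and 11.9 to 19.0% of supraspinatus libraries, and none of the 21 was at 0 in any library. Cartilage markers (13 genes) took 0.372 to 0.785% of Achilles, 0.466 to 0.740% of flexor, 0.123 to 0.399% of patellar and 0.479 to 0.975% of supraspinatus counts. Markers of fat cells (8 genes) took 0.0383 to 0.107% of counts in the forelimb libraries (flexor and supraspinatus) and 0.35 to 1.498% in the hindlimb libraries (Achilles and patellar), and 7 endothelial markers took 0.0375 to 0.0897% and 0.115 to 0.250% in the same order. Achilles 1 stood apart, since the library nearest to it was patellar 3, whereas the other 15 libraries were each nearest to a library of their own tendon, and it held 0.860% of Schwann cell and nerve markers (7 genes) against 0.117 to 0.151% in the other Achilles libraries. Patellar 1 held the highest muscle share of the patellar libraries, 3.75% against at most 0.508% in the other 3. In bulk samples, fewer cells of a type and less RNA per cell cannot be told apart.

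On average, the family as a whole took the largest share of counts in flexor tendons and the smallest in patellar tendons. The 9 genes together made up 1.75 ± 0.459% of counts in Achilles, 2.60 ± 0.565% in flexor, 1.03 ± 0.178% in patellar and 1.82 ± 0.379% in supraspinatus libraries (SD, n = 4 each). The patellar libraries (0.846 to 1.25%) lay below all flexor (2.04 to 3.38%) and all supraspinatus libraries (1.26 to 2.07%). Patellar and Achilles libraries (1.24 to 2.34%) overlapped, and flexor libraries overlapped both Achilles and supraspinatus libraries. With the counts of muscle markers taken out of the total, the shares were 1.77% in Achilles, 2.71% in flexor, 1.04% in patellar and 2.13% in supraspinatus libraries. Dcn alone took 1.21 to 1.94% of counts in flexor and 0.677 to 1.15% in Achilles libraries. In patellar libraries it took 0.249 to 0.564% and in supraspinatus libraries 0.440 to 0.684%. The flexor lead therefore leans on Dcn, and the share of the family without Dcn was not taken. No test was made of these shares.

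Individual members did not share one order of tendons. In edgeR's quasi-likelihood test of any difference among the 4 tendons, 6 of the 7 tested members passed an adjusted p of 0.05, beside 75.6% of all genes tested, so that the count itself sets the family little apart. The adjusted p was 8.22e-07 for Prelp, 0.000237 for Dcn, 0.00264 for Bgn, 0.00686 for Kera, 0.00888 for Fmod, 0.019 for Ogn and 0.207 for Lum. With the mean log2 level of muscle markers as a covariate, Bgn (0.0694), Kera (0.117) and Fmod (0.425) no longer passed, while Prelp and Dcn did. Calls over all genes were 56% in that fit. Muscle share went with tendon, at 11.9 to 19.0% in supraspinatus and at most 6.71% in flexor libraries, the next highest. The covariate therefore cannot separate muscle from tendon, and a call lost with it, here and below, does not show a part of muscle. Without flexor 2, the adjusted p of Ogn was 0.601. Levels below are CPM scaled by TMM, they are not corrected for gene length, and they are therefore compared between tendons and not between genes.

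**Figure D1:**
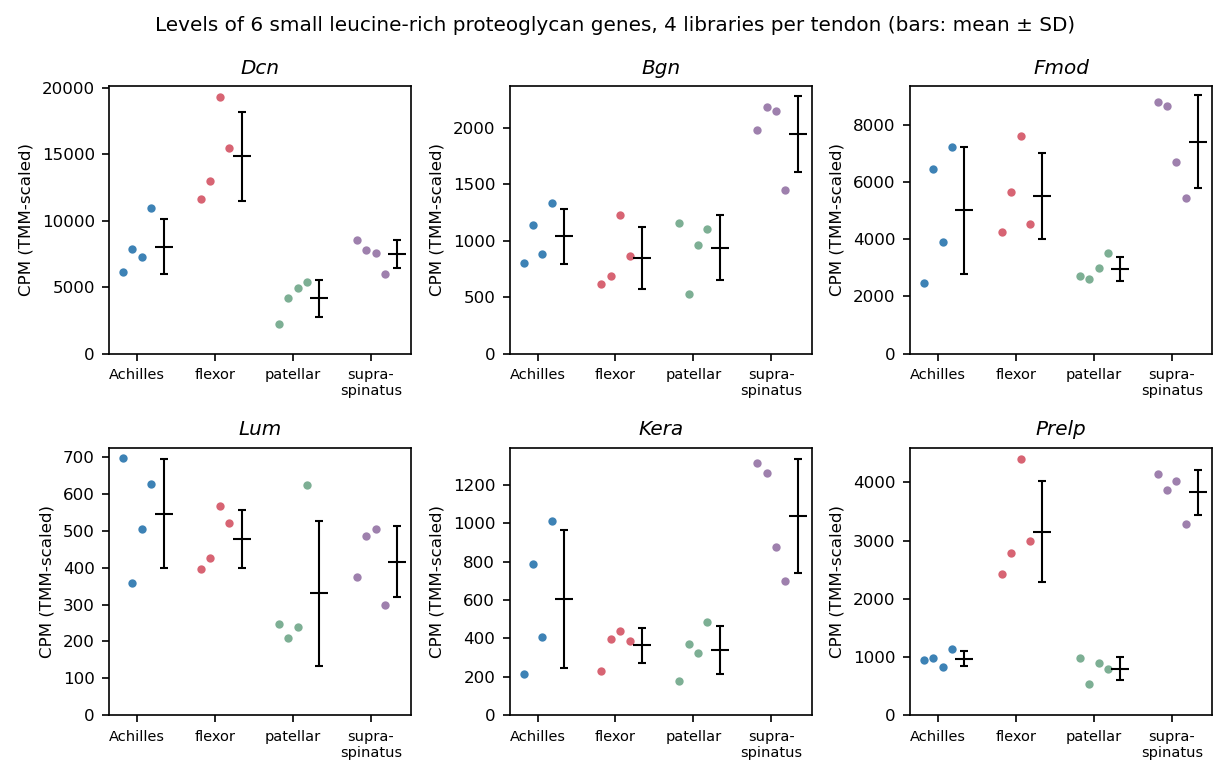
Levels of the 6 abundant members (CPM, TMM-scaled, each panel with its own axis from 0) in the 4 libraries of each tendon, with mean ± SD. Prelp shows flexor and supraspinatus libraries (2424 to 4406 CPM) well above Achilles and patellar libraries (525 to 1138 CPM), Dcn peaks in flexor libraries, and Lum has 1 patellar library at 624 CPM far above the other 3.

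Prelp (ENSRNOG00000003120), which encodes a heparin-binding protein that links basement membranes to the collagen beneath them, divided the tendons into a high and a low group. It had 947, 976, 819 and 1138 CPM in Achilles libraries 1 to 4 and 2424, 2792, 4406 and 2994 CPM in flexor libraries 1 to 4. In patellar libraries 1 to 4 it had 987, 525, 886 and 787 CPM, and in supraspinatus libraries 4141, 3872, 4025 and 3281 CPM. Every flexor and supraspinatus library exceeded every Achilles and patellar library. The fat and endothelial marker shares split the tendons along the same line in the other direction, and their part in the Prelp difference was not tested. Prelp was lower in Achilles than in flexor by a log2 fold change of -1.70 ± 0.22 (SE, adjusted p = 2.31e-05) and lower in Achilles than in supraspinatus by -1.98 ± 0.22 (adjusted p = 7.71e-06). It was higher in flexor than in patellar by 1.99 ± 0.22 (adjusted p = 5.58e-06) and lower in patellar than in supraspinatus by -2.27 ± 0.22 (adjusted p = 2.31e-06). The remaining pairs did not pass, at 0.28 ± 0.21 for Achilles against patellar (adjusted p = 0.448) and -0.28 ± 0.21 for flexor against supraspinatus (adjusted p = 0.289).

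The forelimb tendons, flexor and supraspinatus, were also set against the hindlimb tendons, Achilles and patellar. In this contrast 3 of the 7 tested members passed, all higher in the forelimb tendons, beside 58.8% of all genes tested (30.3% higher and 28.5% lower). Prelp differed by 1.98 ± 0.15 (adjusted p = 1.51e-07), Dcn by 0.86 ± 0.19 (0.00122) and Fmod by 0.73 ± 0.21 (0.00831). The 8 forelimb and the 8 hindlimb libraries did not overlap for Prelp and did for the other abundant members. The share of all genes without overlap in this contrast was not taken, so how unusual this is cannot be said. Bgn (0.38 ± 0.19, adjusted p = 0.101), Kera (0.44 ± 0.29, 0.215) and Lum (0.07 ± 0.22, 0.812) did not pass. With the muscle covariate, neither Dcn, at 1.02 (adjusted p = 0.105), nor Fmod, at 0.19 (0.81), was called, whereas Prelp passed in this contrast and in its 4 called pairs under every alternative run.

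Dcn and Bgn, both of which encode proteins with chondroitin or dermatan sulfate chains, had different orders of tendons. Dcn (ENSRNOG00000004554), whose product decorin also binds TGF-beta, had 6149, 7874, 7230 and 10927 CPM in Achilles libraries 1 to 4 and 11628, 12977, 19286 and 15459 CPM in flexor libraries. It had 2211, 4204, 4915 and 5369 CPM in patellar libraries and 8525, 7759, 7583 and 6013 CPM in supraspinatus libraries. All flexor libraries were above all others, all patellar libraries were below all others, and the Achilles and supraspinatus ranges overlapped. Dcn was lower in Achilles than in flexor (-0.88 ± 0.27, adjusted p = 0.0139) and higher in flexor than in patellar (1.83 ± 0.27, adjusted p = 8.05e-05) and supraspinatus (0.99 ± 0.27, adjusted p = 0.00709). It was lower in patellar than in supraspinatus (-0.84 ± 0.27, adjusted p = 0.0151). Between Achilles and patellar the difference of 0.95 ± 0.27 missed the threshold (adjusted p = 0.0556), and between Achilles and supraspinatus it was 0.11 ± 0.27 (adjusted p = 0.759). The Achilles against flexor call was lost without flexor 3 (-0.70, adjusted p = 0.0526), and with the muscle covariate flexor against supraspinatus (0.89, adjusted p = 0.0645) and patellar against supraspinatus (-1.08, adjusted p = 0.252) were lost.

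Bgn (ENSRNOG00000055962), for biglycan, passed in each of the 3 pairs with supraspinatus tendon and in none of the other 3. Its values were 801, 1143, 880 and 1334 CPM in Achilles libraries, 612, 683, 1223 and 864 CPM in flexor libraries, 1156, 526, 961 and 1106 CPM in patellar libraries and 1981, 2188, 2153 and 1453 CPM in supraspinatus libraries. The 4 supraspinatus libraries lay above the other 12, whose ranges overlapped. Bgn was lower by -0.90 ± 0.27 in Achilles (adjusted p = 0.0121), by -1.20 ± 0.27 in flexor (adjusted p = 0.00214) and by -1.05 ± 0.27 in patellar tendon (adjusted p = 0.00426) than in supraspinatus tendon. The muscle covariate ended the calls of Achilles (-0.61, adjusted p = 0.436) and patellar (-0.70, adjusted p = 0.411) against supraspinatus. Muscle marker share was highest in the supraspinatus libraries, and its part in the Bgn difference was not tested.

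The balance of the decorin and biglycan genes, which does not depend on library scaling, was tight within 3 of the tendons. The ratio of Bgn to Dcn counts had a geometric mean of 0.129 in Achilles (0.122 to 0.145), 0.0560 in flexor (0.0526 to 0.0634), 0.227 in patellar (0.125 to 0.523) and 0.259 in supraspinatus libraries (0.232 to 0.284). Flexor libraries were below all other libraries. Patellar 1, at 0.523, combined the lowest Dcn with the highest Bgn level of that tendon, and the other 3 patellar libraries ran from 0.125 to 0.206. Patellar 1 is the patellar library with the highest muscle share, and the part of that share in the ratio was not tested. The ratio was not tested between tendons, and it is not a ratio of molecules, because counts were not corrected for gene length.

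**Figure D2:**
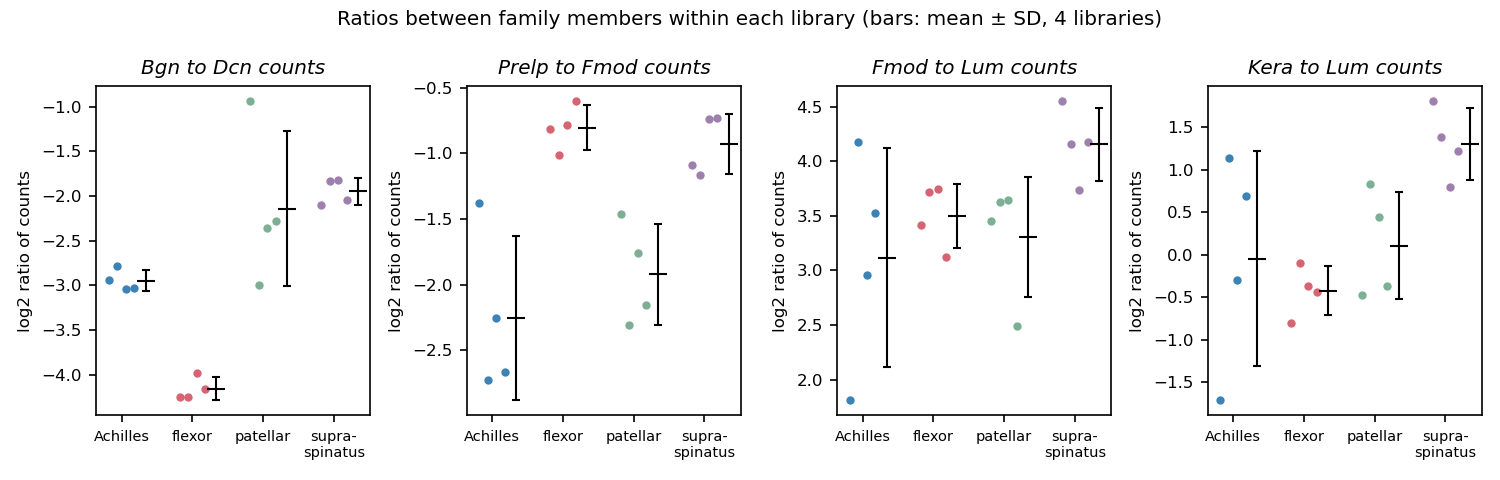
Log2 ratios of counts between members within each library, with mean ± SD over the 4 libraries of each tendon. Bgn to Dcn is lowest in flexor libraries with little spread, Prelp to Fmod is high in flexor and supraspinatus libraries, and the Fmod to Lum and Kera to Lum ratios spread widest over the Achilles libraries.

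Fmod, Lum and Kera encode fibromodulin, lumican and keratocan, which can carry keratan sulfate. In the RefSeq annotation Lum lies next to Dcn and Kera on chromosome 7, and Fmod lies next to Prelp on chromosome 13, with no protein-coding gene between neighbours. RefSeq promoter windows (build GRCr8) were found for 7 of the 10 members, and the 250 bases before the start of these 3 genes are shown because Fmod and Kera ranked the libraries alike within most tendons, although Kera and Lum are the neighbours on the chromosome. Capitals mark matches to the E-box, searched as CANNTG, the motif bound by basic helix-loop-helix factors such as scleraxis.
Fmod, chr13:48045317-48045566, plus strand: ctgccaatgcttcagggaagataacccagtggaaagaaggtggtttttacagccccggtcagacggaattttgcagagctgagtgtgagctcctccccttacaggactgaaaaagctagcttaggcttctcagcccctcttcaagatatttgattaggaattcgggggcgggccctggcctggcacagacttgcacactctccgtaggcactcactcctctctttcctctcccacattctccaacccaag
Lum, chr7:34245456-34245705, plus strand: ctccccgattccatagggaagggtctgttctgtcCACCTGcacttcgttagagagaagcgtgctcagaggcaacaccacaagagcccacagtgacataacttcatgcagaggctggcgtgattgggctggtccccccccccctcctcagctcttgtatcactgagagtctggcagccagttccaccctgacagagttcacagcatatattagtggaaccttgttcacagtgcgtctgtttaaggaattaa
Kera, chr7:34283850-34284099, plus strand: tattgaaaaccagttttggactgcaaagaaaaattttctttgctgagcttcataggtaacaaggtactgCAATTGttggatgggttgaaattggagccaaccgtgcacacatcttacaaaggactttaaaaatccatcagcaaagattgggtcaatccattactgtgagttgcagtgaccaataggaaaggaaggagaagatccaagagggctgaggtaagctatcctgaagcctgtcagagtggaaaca
The Lum window held 1 E-box, 216 bases before the start, the Kera window held 1, 181 bases before the start, and the Fmod window held 0. An E-box was found in 65.5% of all 33469 promoter windows of this length. CCAAT, searched on both strands, occurred 1 time in the Fmod, 1 time in the Lum and 3 times in the Kera window, and in 34% of all windows. TATAAA, also searched on both strands, occurred in none of the 3 and in 12.9% of all windows. No motif overlapped another in these windows. These matches describe letters and not binding sites.

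Fmod (ENSRNOG00000003183), whose product shapes collagen fibrils and binds the crosslinking enzyme lysyl oxidase, was lowest on average in patellar tendon. It had 2457, 6463, 3913 and 7217 CPM in Achilles libraries, 4256, 5635, 7602 and 4538 CPM in flexor libraries, 2722, 2597, 3002 and 3507 CPM in patellar libraries and 8808, 8660, 6712 and 5429 CPM in supraspinatus libraries. Patellar libraries were below all flexor and all supraspinatus libraries, and the Achilles libraries overlapped each of the other tendons. Fmod was higher in flexor than in patellar (0.90 ± 0.30, adjusted p = 0.0221) and lower in patellar than in supraspinatus (-1.32 ± 0.30, adjusted p = 0.00195). The other pairs did not pass: Achilles differed from flexor by -0.14 ± 0.30 (adjusted p = 0.736), from patellar by 0.76 ± 0.30 (0.152) and from supraspinatus by -0.56 ± 0.30 (0.133), and flexor from supraspinatus by -0.43 ± 0.30 (0.257). The flexor against patellar call was lost without flexor 3 (0.68, adjusted p = 0.0832), patellar 1 (0.83, 0.052) or patellar 2 (0.82, 0.0622). With the muscle covariate it was also lost (0.44, adjusted p = 0.464), as was patellar against supraspinatus (-0.49, adjusted p = 0.629).

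Kera (ENSRNOG00000004635), known for its role in the cornea, was highest in supraspinatus tendon on average. It had 213, 789, 408 and 1010 CPM in Achilles libraries, 228, 398, 440 and 385 CPM in flexor libraries, 179, 372, 326 and 484 CPM in patellar libraries and 1315, 1262, 876 and 698 CPM in supraspinatus libraries. Every supraspinatus library was above every flexor and patellar library, while 2 Achilles libraries lay within the supraspinatus range. Kera was lower in flexor (-1.52 ± 0.42, adjusted p = 0.00829) and in patellar (-1.61 ± 0.42, adjusted p = 0.00485) than in supraspinatus tendon. Neither call held with the muscle covariate, at -0.999 (adjusted p = 0.169) for flexor and -0.41 (adjusted p = 0.808) for patellar tendon. Achilles against flexor, patellar and supraspinatus gave 0.74 ± 0.41 (adjusted p = 0.158), 0.83 ± 0.42 (0.251) and -0.78 ± 0.41 (0.133), and flexor against patellar gave 0.09 ± 0.41 (0.868).

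Fmod and Kera ranked the 4 libraries in the same order within 3 of the 4 tendons, all but the patellar. In Achilles tendon both were lowest in library 1, then 3, 2 and 4, in flexor tendon lowest in 1, then 4, 2 and 3, and in supraspinatus tendon lowest in 4, then 3, 2 and 1. Dcn had the same order as both in Achilles and supraspinatus tendon. Deviations of log2 CPM from the tendon means correlated at 0.886 for Fmod and Kera, 0.914 for Bgn and Prelp and 0.813 for Dcn and Kera. Such likeness is therefore not particular to Fmod and Kera. The muscle share was 0.0963 and 0.352% in Achilles 1 and 3 and 1.38 and 1.36% in Achilles 2 and 4. In the other 2 tendons with a shared order, the libraries lowest for Fmod and Kera held the most muscle markers. The share was 6.71 and 4.95% in flexor 1 and 4 against 3.94 and 1.74% in flexor 2 and 3. Supraspinatus 4 held 19.0%, against 15.6, 11.9 and 13.6% in supraspinatus 1, 2 and 3. Supraspinatus 1, highest for Fmod and Kera, held the next highest share, so muscle share did not follow the whole order there. The part of muscle in the spread was not tested. Without Achilles 1, Kera was higher in Achilles than in flexor (1.02, adjusted p = 0.0334). Without Achilles 4, Achilles was lower than supraspinatus for Fmod (-0.79, adjusted p = 0.047) and Kera (-1.14, adjusted p = 0.0394).

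Lum (ENSRNOG00000004610), best known for corneal transparency, was the abundant member that passed in no pair. It had 698, 359, 504 and 627 CPM in Achilles libraries, 398, 427, 568 and 522 CPM in flexor libraries, 248, 210, 240 and 624 CPM in patellar libraries and 376, 485, 505 and 299.5 CPM in supraspinatus libraries. Patellar 1, 2 and 3 were below all other libraries, and patellar 4 was above all flexor and supraspinatus libraries. The log2 fold change was 0.19 ± 0.32 for Achilles against flexor (adjusted p = 0.645), 0.73 ± 0.32 for Achilles against patellar (0.197) and 0.39 ± 0.32 for Achilles against supraspinatus (0.322). It was 0.53 ± 0.32 for flexor against patellar (0.178), 0.20 ± 0.32 for flexor against supraspinatus (0.634) and -0.33 ± 0.32 for patellar against supraspinatus (0.393). Without patellar 4, Lum passed among the 4 tendons (adjusted p = 0.00239) and in the 3 pairs with patellar tendon: 1.23 for Achilles (0.0163), 1.01 for flexor (0.0028) and -0.86 for patellar against supraspinatus (0.00718).

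Ratios of counts were also taken between Prelp, Fmod, Kera and Lum, and were not tested. The ratio of Prelp to Fmod counts had a geometric mean of 0.209 in Achilles (0.151 to 0.386), 0.573 in flexor (0.495 to 0.660), 0.264 in patellar (0.202 to 0.363) and 0.525 in supraspinatus libraries (0.447 to 0.604), with no overlap between the forelimb and hindlimb tendons. Fmod to Lum was 8.67 in Achilles (3.52 to 18.02), 11.3 in flexor (8.70 to 13.4), 9.88 in patellar (5.62 to 12.5) and 17.8 in supraspinatus libraries (13.3 to 23.4). Kera to Lum was 0.968 in Achilles (0.305 to 2.20), 0.744 in flexor (0.573 to 0.933), 1.08 in patellar (0.720 to 1.77) and 2.46 in supraspinatus libraries (1.73 to 3.50).

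**Figure D3:**
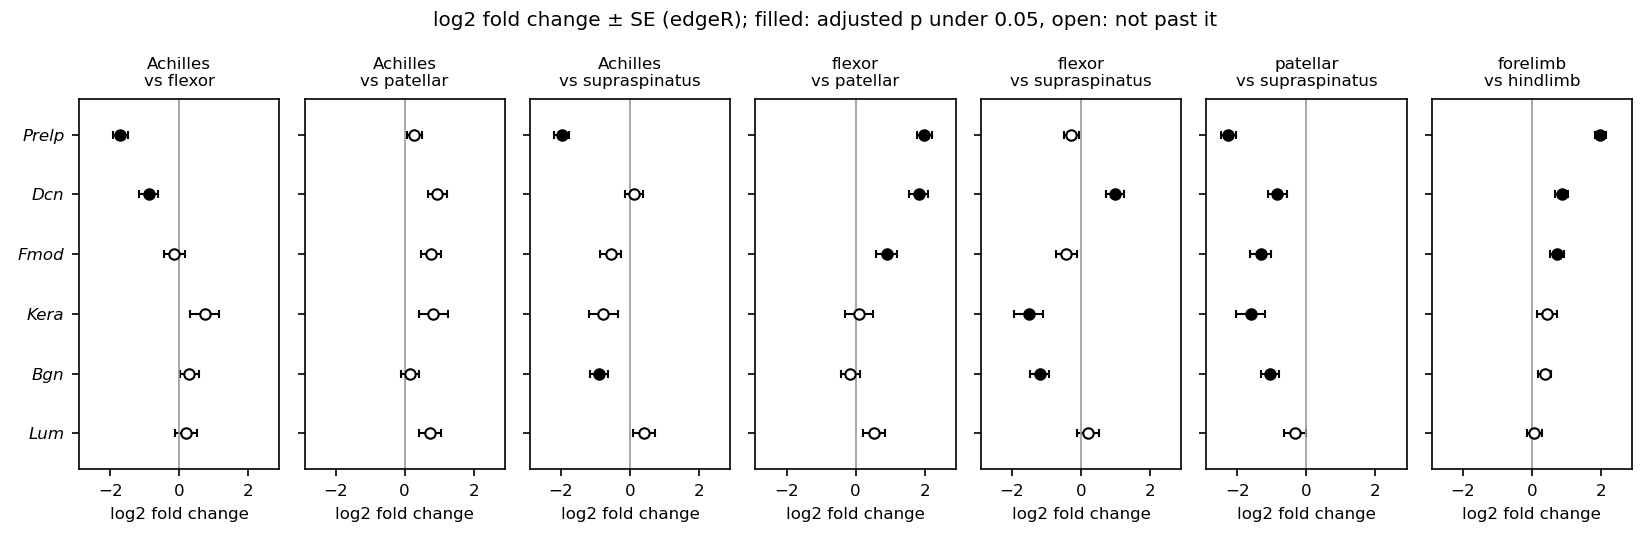
Log2 fold changes ± SE from edgeR for the 6 abundant members in each pair of tendons and in forelimb against hindlimb tendons. The group named first is set over the other, and calls at an adjusted p under 0.05 are marked. Patellar against supraspinatus holds 5 calls, all below 0, and Achilles against patellar holds none.

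Patellar against supraspinatus gave the most calls by pair: 5 of the 7 tested members, all lower in patellar tendon, beside 56.4% of all genes tested (28.8% higher and 27.5% lower). Flexor against patellar gave 4, all higher in flexor tendon, beside 50.5% (25.8% higher and 24.7% lower), and these included Ogn. Achilles against flexor gave 3, all lower in Achilles tendon, beside 47.7% (23.5% higher and 24.1% lower), again with Ogn among them. Flexor against supraspinatus gave 1 higher (Dcn) and 2 lower (Bgn and Kera), beside 47.7% (23.4% higher and 24.3% lower). Achilles against supraspinatus gave 2 lower (Bgn and Prelp), beside 50.1% (25.4% higher and 24.7% lower). Achilles against patellar gave 0 calls in edgeR, beside 5.16% of all genes (3.1% higher and 2.06% lower). Dcn, Fmod and Lum were at an unadjusted p under 0.05 in edgeR, a cut for which the share of all genes was not taken. DESeq2 and limma-voom each called 1 member, Dcn, beside 11.7% and 5.26% of all genes.

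Libraries of the 2 tendons did not overlap for 5 of the 6 abundant members in patellar against supraspinatus, beside 48.3% of all genes tested. They did not overlap for 3 in flexor against patellar (48.8% of all genes), 3 in flexor against supraspinatus (48.1%), 2 in Achilles against flexor (46.5%), 2 in Achilles against supraspinatus (44.2%) and 1, Dcn, in Achilles against patellar (12.5%). The pairs share libraries, so their counts are not independent. No test was made of these counts against the shares of all genes.

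Scaling bore on the pairs with supraspinatus tendon. Without TMM, scaled by library totals alone, the median over all genes tested moved to 0.47 for Achilles, 0.31 for flexor and 0.46 for patellar against supraspinatus, and to -0.22 for forelimb against hindlimb. Under that scaling Bgn in Achilles against supraspinatus (-0.51, adjusted p = 0.11) and Dcn in patellar against supraspinatus (-0.44, adjusted p = 0.152) were not called, and Lum in Achilles against supraspinatus was (0.79, adjusted p = 0.0451).

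The authors' deposited table lists 6 of the members, and its calls differ from these for 3 of them. For Achilles against patellar the authors' deposited table gives a log2 fold change of 1.06 for Dcn (FDR 0.0449) and 0.99 for Fmod (FDR 0.0377). For Achilles against flexor the authors' deposited table gives 1.07 for Kera (FDR 0.0247) and -0.72 for Dcn (FDR 0.0547). A fit to the counts without Achilles 1 gave 1.06 for Dcn (adjusted p = 0.046) and 0.99 for Fmod (adjusted p = 0.0416) in Achilles against patellar. Over all shared genes, the median absolute difference from the authors' deposited table in that pair was 0.00674 without Achilles 1 and 0.0677 with all 16 libraries. Pairs with flexor tendon stayed further away without Achilles 1, at 0.05 for Achilles, 0.0432 for patellar and 0.0462 for supraspinatus. With all 16 libraries these were 0.0782, 0.0421 and 0.0453, so leaving out Achilles 1 does not account for every pair. How the authors' deposited table was fitted is not given in the sources used here.

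Ogn, Omd and Aspn, which lie side by side on chromosome 17 in RefSeq, were nearly undetected apart from single libraries. Osteoglycin is a small proteoglycan of bone and connective tissue, osteomodulin is found in mineralised matrix, and asporin binds collagen and TGF-beta. Ogn (ENSRNOG00000047786) had 8, 11, 1 and 12 counts in Achilles libraries, 2, 578, 9 and 4 in flexor, 2, 5, 5 and 6 in patellar and 2, 1, 33 and 1 in supraspinatus libraries. Flexor 2 alone was far above the rest, and the Ogn calls in Achilles against flexor (adjusted p = 0.0405) and flexor against patellar (adjusted p = 0.03) rest on it: without flexor 2, the log2 fold change for Achilles against flexor was 0.74 (adjusted p = 0.623). Omd (ENSRNOG00000039560) had 0, 2, 0 and 0 counts in Achilles, 1 in each flexor library, 1, 0, 111 and 1 in patellar and 1, 2, 2 and 0 in supraspinatus libraries, so that patellar 3 alone exceeded 3 counts. Aspn (ENSRNOG00000050431) had 3, 1, 2 and 2 counts in Achilles, 4, 2, 6 and 7 in flexor, 26, 1, 5 and 17 in patellar and 116, 8, 8 and 6 in supraspinatus libraries.

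**Figure D4:**
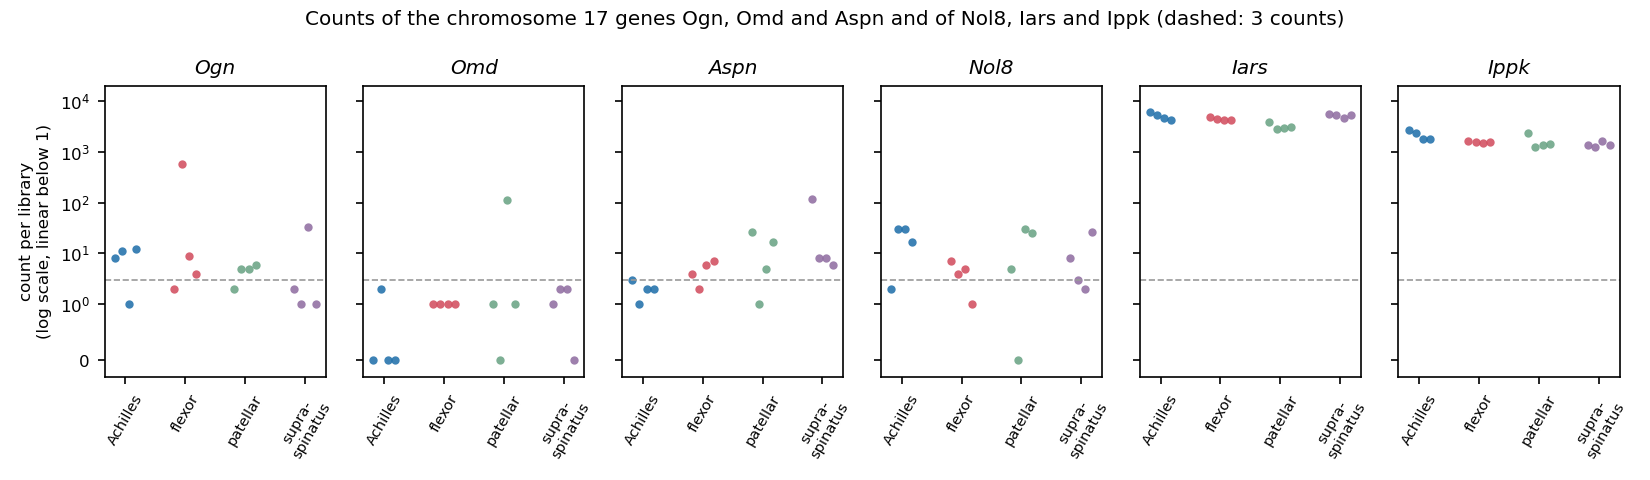
Counts of Ogn, Omd and Aspn, and of Nol8, Iars and Ippk, in each of the 16 libraries on a log scale. For Ogn, Omd and Aspn most libraries lie at or below 12 counts. Flexor 2 for Ogn (578), patellar 3 for Omd (111) and supraspinatus 1 for Aspn (116) stand alone, each in a different library.

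The highest library was a different one for each of the 3 genes. In RefSeq all 3 genes lie within the span of Cenpp, which had no row by that name among the counted genes. Reads of overlapping genes could be divided or dropped by the authors' counting, whose strand setting is not given in the sources used here. These counts are therefore uncertain. Nol8, a ribosome biogenesis gene next to Cenpp, had 0 to 30 counts (median 6), while Ippk and Iars, nearby in the same annotation, had 1234 to 2675 and 2863 to 6142 counts. The part of overlap in the low counts of Ogn, Omd and Aspn was not tested. The ratio of Aspn to Ogn is not given, since each was at or under 3 counts in 6 libraries, mostly different ones.

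The genes whose log2 CPM followed each member most closely over the 16 libraries were picked by Pearson's r among 10421 genes. Libraries cluster by tendon, so r mainly follows differences between tendons and carries no p. For Dcn this was Olfml3 (0.978), an olfactomedin-like matrix gene, and for Prelp it was Ezr (0.974), which encodes ezrin. For Fmod it was Ssc5d (0.951), for Kera Uts2r (0.947) followed by Lrrc15 (0.938), a leucine-rich repeat membrane protein gene, and for Bgn Enpp1 (0.911), whose product makes pyrophosphate. Chst3, a chondroitin sulfotransferase gene, was the third for Bgn (0.891). The closest gene to Lum, Tusc3, reached 0.798.

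Genes for the sugar chains passed about as often as genes in general. Of 20 genes of the linker and of chondroitin and dermatan sulfate synthesis, 15 passed among the 4 tendons, and of 11 tested keratan sulfate genes 8 passed, beside 75.6% of all genes. Xylt1, for the xylosyltransferase that starts a chain on the core protein, had 1.67 ± 0.563 CPM in Achilles, 19.97 ± 5.09 in flexor, 2.37 ± 1.02 in patellar and 3.78 ± 0.604 in supraspinatus libraries, and every flexor library was above all others. It was lower in Achilles than in flexor by -3.58 ± 0.33 (adjusted p = 1.91e-06) and higher in flexor than in patellar by 3.07 ± 0.33 (adjusted p = 4.3e-06) and supraspinatus by 2.40 ± 0.32 (adjusted p = 3.39e-05). Chst15, which adds sulfate to chondroitin sulfate, was also highest in flexor libraries, at 17.2 ± 1.75 CPM in Achilles, 48.1 ± 11.5 in flexor, 14.99 ± 4.04 in patellar and 24.7 ± 3.41 in supraspinatus libraries. Chst3, also a chondroitin sulfotransferase gene, was higher in supraspinatus, and it passed in each pair with supraspinatus. It had 18.8 ± 3.57 CPM in Achilles, 21.6 ± 4.97 in flexor, 25.6 ± 10.9 in patellar and 45.4 ± 4.37 in supraspinatus libraries. Unlike Xylt1 and Chst15, Csgalnact1 of the same list was lower in flexor than in each other tendon. It differed by 0.86 ± 0.10 for Achilles against flexor (adjusted p = 9.99e-06). For flexor it was -0.51 ± 0.10 against patellar (adjusted p = 0.000529) and -0.60 ± 0.10 against supraspinatus (adjusted p = 0.000163).

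**Figure D5:**
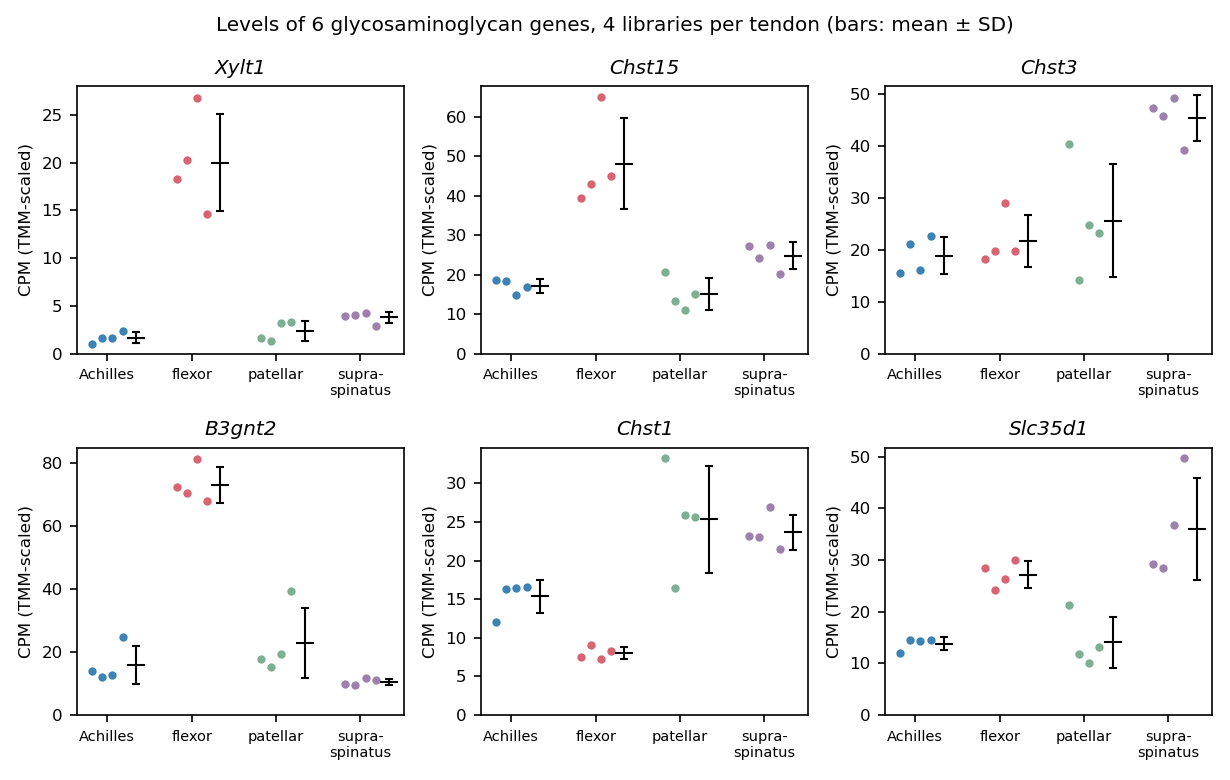
Levels (CPM, TMM-scaled, axes from 0) of 6 genes of glycosaminoglycan synthesis in the 4 libraries of each tendon, with mean ± SD. Xylt1, Chst15 and B3gnt2 are highest in flexor libraries, Chst1 is lowest there, and Chst3 is highest on average in supraspinatus libraries.

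Among keratan sulfate genes, B3gnt2, which extends chains of N-acetyllactosamine, and Chst1, which sulfates keratan, ran in opposite directions in flexor tendon. B3gnt2 had 15.9 ± 5.99 CPM in Achilles, 73.0 ± 5.76 in flexor, 22.8 ± 11.1 in patellar and 10.6 ± 0.971 in supraspinatus libraries. Chst1 had 15.4 ± 2.18 CPM in Achilles, 8.05 ± 0.778 in flexor, 25.4 ± 6.93 in patellar and 23.7 ± 2.32 in supraspinatus libraries. B3gnt2 was higher in flexor than in supraspinatus by 2.79 ± 0.29 (adjusted p = 5.08e-06) and Chst1 was lower by -1.56 ± 0.18 (adjusted p = 1.05e-05). B3gnt7, on the same list, was lower in flexor than in patellar by -1.39 ± 0.29 (adjusted p = 0.00106). It was higher in Achilles than in flexor by 0.88 ± 0.28 (adjusted p = 0.0189), so in both pairs it ran with Chst1 and not with B3gnt2. Slc35d1 was counted on the same list, although this transporter of nucleotide sugars for chain synthesis is not specific to keratan sulfate. It had 13.8 ± 1.18 CPM in Achilles, 27.2 ± 2.53 in flexor, 14.1 ± 4.97 in patellar and 36.0 ± 9.91 in supraspinatus libraries.

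Other leucine-rich matrix proteins and the collagen partners were described in the same way. Of 7 tested further leucine-rich genes 6 passed among the 4 tendons, beside 75.6% of all genes. Chad, for chondroadherin, had 4111 ± 1590 CPM in Achilles, 5066 ± 1156 in flexor, 1584 ± 1038 in patellar and 5814 ± 422 in supraspinatus libraries, and it was lower in patellar than in supraspinatus by -1.88 ± 0.39 (adjusted p = 0.000942). Chad is also on the list of cartilage markers. Of 10 tested collagen genes 5 passed among the 4 tendons, beside the same 75.6%. Col1a1, the main fibrillar collagen gene of tendon, had 85683 ± 31395 CPM in Achilles, 22728 ± 5279 in flexor, 72551 ± 22741 in patellar and 41686 ± 13395 in supraspinatus libraries, so the flexor tendon with the highest Dcn had the lowest mean Col1a1. Col1a1 was lower in flexor than in patellar by -1.67 ± 0.34 (adjusted p = 0.00089), where Dcn was higher by 1.83 ± 0.27.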

How the data were processed

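The authors deposited a table of raw counts, whole numbers for each Ensembl gene and library. The submitters' processing notes name FastQC, HISAT2, edgeR and build rn6 of the rat genome; the counting step and its strand setting are not stated there. A second table deposited by the authors holds, per the file headers, log2 mean CPM, log2 fold changes and p-values for the 6 pairs, and it was used only where it is named. The members and gene lists were chosen with earlier results of these data known.

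The tendon in the labels set the groups. Genes with low counts were removed with filterByExpr (minimum count 10, minimum total 15) and libraries scaled by TMM. A quasi-likelihood model of the 16 libraries, with a coefficient for each of the 4 tendons and 12 residual degrees of freedom, was fitted in edgeR 4.0.16 on R 4.3.3. Benjamini-Hochberg adjustment covered all genes tested in a comparison, with a threshold of 0.05. An SE is |log2 fold change| divided by √F. Log2 CPM used a prior count of 2. All members are named. Genes from the lists had an adjusted p under 0.05, at least 5 CPM in the higher tendon and the highest or lowest log2 fold changes of a comparison. Only part of those that met this rule are named, picked after results were seen. Other named genes came from the ranking by Pearson's r, or, for Nol8, Ippk and Iars, from their place near Ogn, Omd and Aspn. Pathway and marker lists held 186 genes, of which 176 had a row.

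The alternatives were size factors of DESeq2, library totals, DESeq2 1.42.0, limma-voom (limma 3.58.1), no filter, a filter of 1 CPM in 8 libraries, a replicate block, the muscle markers as a covariate, each pair alone, and fits without each library. A fit without Achilles 1 and patellar 1 was chosen after seeing the data. Promoter windows and gene order come from RefSeq, build GRCr8.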

Additional observations from a re-analysis of the deposited data

Results flagged for a closer look

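Of 56 sets of 4 libraries examined for a single library far from the others, 7 were marked, where the rule's nominal rate by chance is about 1 in 20. That rate assumes independent sets with a normal spread. It does not hold for Ogn, Omd and Aspn near 0 counts, and the ratios reuse counts of the members. The number marked is therefore not set against it. Lum was at 624 CPM in patellar 4, far above the other patellar libraries, and the log2 ratio of Fmod to Lum was 2.49 there, below the rest of that tendon. Ogn was at 5.82 CPM in flexor 2 and at 0.460 CPM in supraspinatus 3. Omd was at 1.46 CPM in patellar 3 and at 0.0207 CPM in Achilles 2, which is 2 counts. Aspn was at 1.42 CPM in supraspinatus 1.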

How the results depend on the processing

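For the 6 abundant members, 1178 of 1236 refitted values over 48 results kept their direction and their side of the threshold, 19 lost a call, 17 gained one and 22 changed sign, none of them past the threshold. With the muscle covariate the members called numbered 2 among the 4 tendons (56% of all genes), 1 for Achilles against supraspinatus (11.2%), 2 for flexor against patellar (31%), 1 for flexor against supraspinatus (36.1%), 1 for patellar against supraspinatus (11%) and 1 for forelimb against hindlimb (17.4%), so that calls over all genes fell too. The cause was not tested. Achilles against patellar gave 1 call with DESeq2 size factors (5.07% of all genes), DESeq2 (11.7%), limma-voom (5.26%) and without both Achilles 1 and patellar 1 (8.09%). Leaving out 1 library at a time gave 2 to 3 calls for Achilles against flexor (42 to 49.4% of all genes) and 0 to 2 for Achilles against patellar (1.99 to 8.22%). It gave 2 to 5 for Achilles against supraspinatus (44.1 to 51.3%) and 2 to 4 for flexor against patellar (43.8 to 52.2%). Flexor against supraspinatus gave 3 to 5 (40 to 50%) and patellar against supraspinatus 5 to 6 (50.7 to 57.9%). Forelimb against hindlimb gave 3 to 4 (55.5 to 58.4%), and 6 to 7 were called among the 4 tendons (71.9 to 76.3%). Aspn entered the filter in some of these fits, also among the 4 tendons. It was among the members called where Achilles or flexor against supraspinatus reached 5.

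Values that changed sign were these log2 fold changes. With the muscle covariate, Fmod was 0.12 and Lum -0.0691 for Achilles against flexor, and Dcn was -0.0743, Fmod 0.0657, Lum -0.12 and Kera 0.0689 for Achilles against supraspinatus. In the same fit Kera was -0.59 for flexor against patellar, Lum -0.048 for flexor against supraspinatus and Kera -0.33 for forelimb against hindlimb. With library totals, Prelp was 0.0524 for flexor against supraspinatus, Lum 0.0483 for patellar against supraspinatus and Lum -0.16 for forelimb against hindlimb. With limma-voom, Ogn was 0.37 for Achilles and 0.27 for patellar against supraspinatus. Over fits without 1 library, or without Achilles 1 and patellar 1, Fmod ran from -0.36 to 0.12 for Achilles against flexor, Bgn from -0.0356 to 0.38 for Achilles against patellar, and Dcn from -0.0754 to 0.22 for Achilles against supraspinatus. Kera ran from -0.15 to 0.28 for flexor against patellar and Lum from -0.0112 to 0.32 for forelimb against hindlimb. Ogn ran from -4.55 to 0.74 for Achilles against flexor, from -1.03 to 2.10 for Achilles against supraspinatus, from -0.28 to 5.01 for flexor against patellar, from -1.40 to 6.27 for flexor against supraspinatus and from -1.48 to 1.64 for patellar against supraspinatus, its sign turning without flexor 2 or supraspinatus 3.

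The numbers after the word Rat in the titles were fitted as a block. Deviations of libraries with the same number correlated at -0.21 to 0.37 over 24 pairs. Many libraries were closest to one of the same number in another tendon, such as Achilles 4 to patellar 4 and flexor 3 to patellar 3. Others were not, such as patellar 2, closest to Achilles 3, and supraspinatus 1, closest to patellar 4. Whether the numbers pair samples is not settled by these values, and the main fit had no block. With the replicate block, 5 members were called among the 4 tendons (74.5% of all genes), 2 for Achilles against flexor (47.4%), 0 for Achilles against patellar (4.93%), 3 for Achilles against supraspinatus (49.3%), with Kera at -1.01 (adjusted p = 0.0496), 3 for flexor against patellar (51.3%), 3 for flexor against supraspinatus (47.6%), 5 for patellar against supraspinatus (55.7%) and 3 for forelimb against hindlimb (58.7%). Depth limits Ogn, Omd and Aspn, which were at or under 3 counts in 6, 15 and 6 libraries.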

Other observations

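Genes for proteases, growth factors and receptors that act with the family passed about as often as genes in general. Of 11 tested protease genes 8 passed among the 4 tendons, beside 75.6% of all genes. Mmp3, for a metalloproteinase that cleaves proteoglycans, had 138.7 ± 37.1 CPM in Achilles, 67.8 ± 4.29 in flexor, 10.4 ± 1.30 in patellar and 7.84 ± 3.48 in supraspinatus libraries (SD, n = 4 each), and it was higher in Achilles than in patellar by 3.73 ± 0.29 on the log2 scale (adjusted p = 3.23e-05, edgeR). Adamts4, for an aggrecanase, had 22.7 ± 17.3 CPM in Achilles, 2.78 ± 0.379 in flexor, 22.3 ± 14.6 in patellar and 3.99 ± 1.43 in supraspinatus libraries, and was lower in forelimb than in hindlimb tendons by -2.76 ± 0.35 (adjusted p = 9.98e-06).

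Of 15 genes for growth factors and receptors that bind members of the family, 11 passed among the 4 tendons, beside the same 75.6%. Igf1r, for a receptor that decorin can bind, had 19.4 ± 4.47 CPM in Achilles, 81.8 ± 6.97 in flexor, 17.1 ± 5.62 in patellar and 25.1 ± 4.27 in supraspinatus libraries. Bmp2, for a bone morphogenetic protein, had 6.07 ± 1.88 CPM in Achilles, 25.7 ± 7.70 in flexor, 5.78 ± 1.69 in patellar and 7.46 ± 0.985 in supraspinatus libraries. Both were higher in flexor than in patellar tendon, by 2.26 ± 0.22 for Igf1r (adjusted p = 2.06e-06) and 2.15 ± 0.26 for Bmp2 (adjusted p = 1.23e-05). Of 8 tested crosslinking genes and other fibril partners 7 passed among the 4 tendons, beside 75.6% of all genes. Loxl3, of the lysyl oxidase family, had 174.5 ± 50.3 CPM in Achilles, 319 ± 57.3 in flexor, 71.8 ± 10.8 in patellar and 113.5 ± 38.6 in supraspinatus libraries.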
